A study of Mus musculus with 36 samples.

Results

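The data described here are the cytoplasmic RNA of C1.1 cells, a line with a deleted microRNA hairpin, after 2h of hypoxia, set against the cytoplasmic RNA of C1.1 cells kept in normoxia, over all genes of the deposited raw counts. The libraries were chosen by their labels alone, and they are 6 of the 36 of the series: replicates 1 to 3 at 2h and replicates 1 to 3 in normoxia. C1.1 is a line grown from 1 sorted cell of C166, a mouse line that came from the blood vessel cells of the yolk sac. A CRISPR cut with a pair of guides had removed the miR-466c hairpin from an intron of Sfmbt2, and other copies of hairpins of this family remain in the same intron. Both groups carry this deletion, and since C1.1 is 1 clone, the deletion and any other trait of the clone cannot be told apart. Hypoxia was 1% oxygen in a chamber. Cells were fractionated into cytoplasm and nuclei, and RNA depleted of ribosomal RNA was sequenced, so that a level here is the share of an RNA among all cytoplasmic RNA counted, old and new alike. Also used, and named where they appear, are C1.1 cytoplasm after 24h of hypoxia (3 libraries), C1.1 nuclei at all 3 times (9 libraries) and the cytoplasm of C166 at all 3 times (9 libraries).

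Cells that run short of oxygen stabilise HIF-1 and HIF-2, transcription factors whose alpha subunits are otherwise hydroxylated by the EGLN enzymes and destroyed. HIF binds short DNA sites with the core letters ACGTG or GCGTG and raises the genes of glucose uptake, glycolysis, mitophagy and blood vessel growth, among them Vegfa, whose protein draws new vessels. C166 cells are grown as a model of the endothelium, the lining of vessels, which answers low oxygen with signals of this kind.

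Total counts of the 6 libraries lay between 24437487 and 28404375. The number of genes with a count was 15812, 18748 and 17786 in replicates 1 to 3 at 2h and 17070 to 18100 in normoxia, and replicate 1 at 2h stood apart on the third principal component of the 9 cytoplasmic C1.1 libraries (12.9% of the variance). The labels number the replicates and do not say whether they were separate cultures, so the tests are made against the spread of these libraries, which may be technical only. The cells are labelled endothelial, yet of 15 endothelial markers 10 have a row and only Eng was over 1 CPM (counts scaled to library size) on average. The markers together summed to 2.06 to 2.95 CPM at 2h and 2.45 to 3.04 CPM in normoxia, with Pecam1 at 0.159 and 0.169 CPM on average and Tie1 at 0 in both. Markers of smooth muscle and mesenchyme summed to 1434 to 1687 CPM at 2h and 2027 to 2296 CPM in normoxia, led by Acta2. Blood markers stayed within 19.9 to 27.8 CPM, nearly all of it Cd14, and epithelial markers within 12.1 to 20.7 CPM, nearly all of it Krt19.

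After 2h of hypoxia, 493 genes were higher and 482 lower in the cytoplasm of C1.1, out of 14257 tested (adjusted p under 0.05, edgeR's quasi-likelihood test with Benjamini-Hochberg adjustment). These are 6.84% of the genes tested, 3.46% of them called higher and 3.38% called lower, which is the background for every count below. Most changes were small: 47 of the higher and 17 of the lower genes moved 2-fold or more, and 336 and 340 moved by less than 1.5-fold. The libraries of the 2 groups did not overlap in 489 of the higher genes and 476 of the lower ones. Over all 14257 genes this held for 3993, so a lack of overlap is common to nearly all called genes. The count of calls rests on few libraries. It was 328 without normoxia replicate 1, 333 without normoxia replicate 2, 393 without 2h replicate 1 and 286 without 2h replicate 2, and 292 when the 9 C166 libraries entered the fit. With those less replicate 1 of C166 in normoxia, a library that stands apart, it was 751, and 703 of these were among the 975. All 12 leading higher genes and 10 of the 11 leading lower genes described here passed the test whichever of the 9 libraries was left out.

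**Figure D1:**
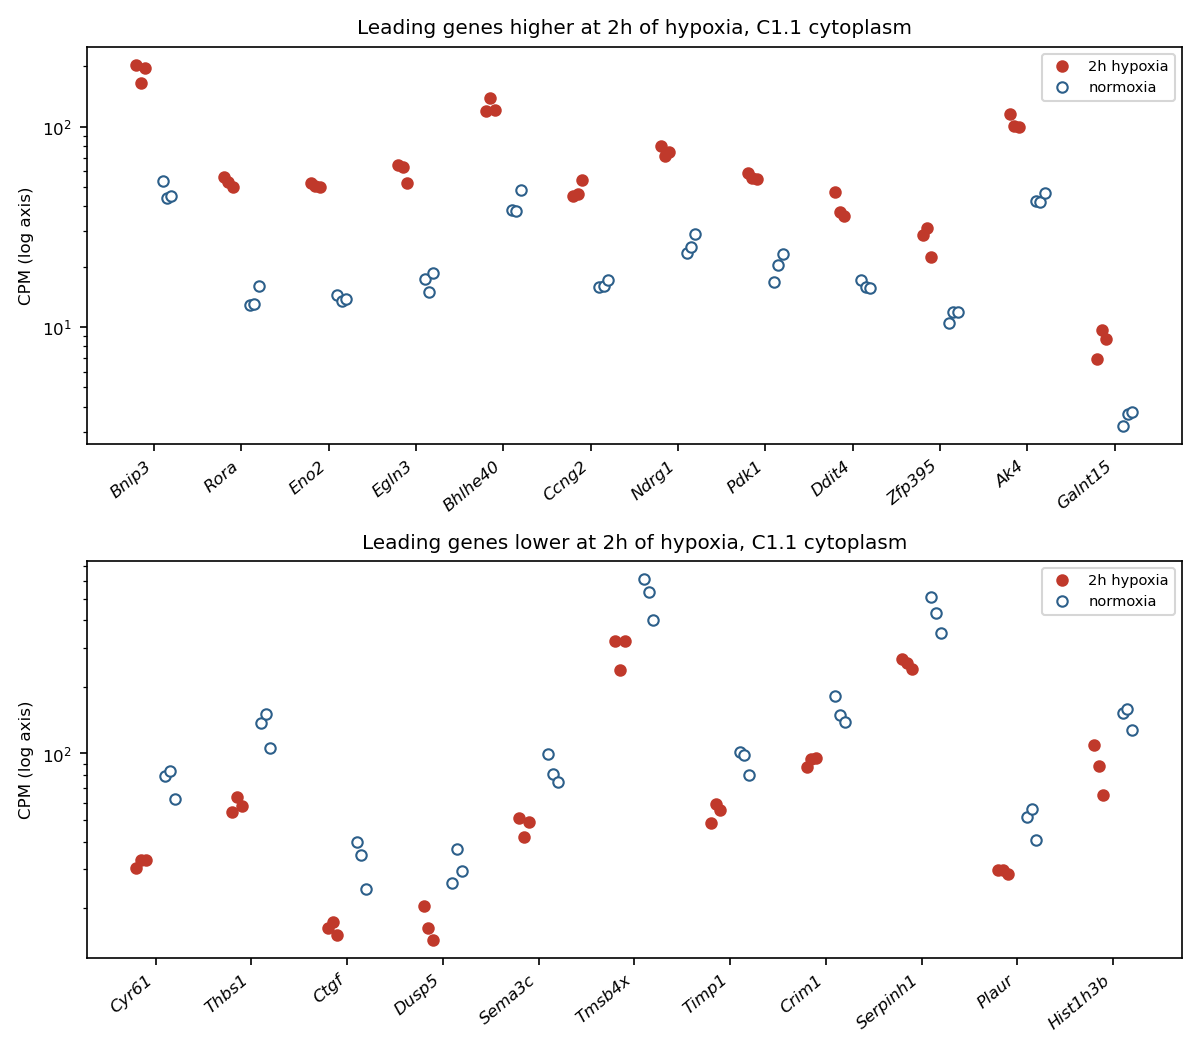
CPM on a log axis in each cytoplasmic library of C1.1 for the 12 leading higher genes (top) and the 11 leading lower genes (bottom), with filled points at 2h of hypoxia and open points in normoxia. In every gene shown the 3 libraries at 2h lie on 1 side of the 3 in normoxia, which the rule that named these genes required. Bnip3 and Tmsb4x are the most abundant of their panels at 2h.

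The higher genes were led by known HIF targets. Bnip3, which marks mitochondria for removal, had 203, 165 and 195 CPM at 2h, against 53.6, 44.0 and 45.3 CPM in normoxia. Its log2 fold change was 1.98 ± 0.11 (SE), a 3.94-fold difference, with an adjusted p of 5.74e-10. The groups lay far apart, with no library of either near the other. Eno2, an enolase of the late steps of glycolysis, had 52.5, 50.4 and 50.2 CPM at 2h, against 14.4, 13.5 and 13.8 CPM in normoxia (1.88 ± 0.10 on the log2 scale, adjusted p = 5.74e-10). Its 6 libraries formed a tight set per group. Ndrg1, a stress-response gene of the N-myc downregulated family, had 79.7, 71.7 and 74.3 CPM at 2h, against 23.3, 25.0 and 29.2 CPM in normoxia (1.54 ± 0.12, adjusted p = 6.9e-08). Ddit4, an inhibitor of mTORC1, had 47.1, 37.6 and 36.0 CPM at 2h, against 17.2, 15.8 and 15.7 CPM in normoxia (1.31 ± 0.14). Stc1, which codes for the secreted hormone stanniocalcin, was picked after its values were seen and had 16.8, 15.0 and 14.7 CPM at 2h, against 4.44, 4.42 and 4.25 CPM in normoxia (1.83 ± 0.14, adjusted p = 6.9e-08).

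Of the list of HIF targets outside metabolism, 40 members were tested, and 23 rose, 3 fell and 14 did not pass the test, with a median log2 fold change of 0.52 against -0.01 over all genes. Among the oxygen sensors, Egln3 had 64.3, 63.0 and 52.5 CPM at 2h, against 17.3, 15.0 and 18.5 CPM in normoxia, and Egln1 had 95.5, 83.4 and 72.7 CPM at 2h, against 39.8, 42.7 and 45.2 CPM in normoxia. Both hydroxylases tag HIF alpha for destruction and are themselves HIF targets, and they rose by 1.82 ± 0.12 and 0.98 ± 0.10 on the log2 scale. They are also the only genes called of 11 tested HIF subunits and hydroxylases. Hif1a itself, the alpha subunit, had 423, 390.0 and 437 CPM at 2h, against 401, 359.6 and 378 CPM in normoxia, and its log2 fold change of 0.14 ± 0.08 did not pass the test (adjusted p = 0.381). Vhl, the ubiquitin ligase subunit that binds hydroxylated HIF alpha, stood at 0.32 ± 0.10 (adjusted p = 0.0645). Ankrd37, a small ankyrin repeat gene, had the largest fold of the list, from low levels, with 10.3, 7.44 and 7.57 CPM at 2h, against 2.33, 0.907 and 1.73 CPM in normoxia (2.34 ± 0.26, adjusted p = 1.27e-05). Bnip3l, the sister gene of Bnip3, rose too, at 91.2 ± 16.5 CPM at 2h and 56.6 ± 4.12 CPM in normoxia (SD, n = 3 each; log2 fold change 0.69).

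Enzymes that act on secreted proteins were among those that rose. P4ha2, a prolyl hydroxylase of collagen, rose by 0.97 ± 0.13 and Ero1l, which drives disulphide bonds in the endoplasmic reticulum, by 0.67 ± 0.09 on the log2 scale. Hmox1, which breaks down haem, rose by 0.62 ± 0.10, Cited2, which competes with HIF alpha for its coactivators, by 0.58 ± 0.10 and Bhlhe41, a repressor related to Bhlhe40, by 0.71 ± 0.12. Among the members that fell were Lox, which crosslinks collagen (-0.45 ± 0.09), and Angptl4, a secreted inhibitor of lipoprotein lipase (-0.93 ± 0.23, lost without normoxia replicate 2 or 2h replicate 1, largest adjusted p = 0.119). Without replicate 1 at 2h the list had 20 higher and 2 lower members, and without normoxia replicate 1 it had 20 and 3.

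Regulators of transcription were among the other higher genes. Bhlhe40, a repressor of the clock and a HIF target, had 119, 139 and 121 CPM at 2h, against 38.4, 37.8 and 48.4 CPM in normoxia (1.61 ± 0.12, adjusted p = 6.9e-08). Rora, a nuclear receptor that binds clock gene promoters, had 56.3, 52.7 and 50.0 CPM at 2h, against 12.9, 13.1 and 16.0 CPM in normoxia (1.92 ± 0.11, adjusted p = 5.74e-10). In both genes every library at 2h was far above every one in normoxia. Mxi1, Mxd4 and Mxd1, which pair with MAX and oppose MYC, rose by 1.00 ± 0.12, 0.80 ± 0.13 and 0.68 ± 0.17 on the log2 scale. Mxd1 lost its call without 4 of the libraries (largest adjusted p = 0.0999). Of the 28 tested genes of the list of MYC and ribosome biogenesis these were the 3 that rose, and Rrp9 alone fell, with a median of -0.02. Ccng2, a cyclin G that is high in resting cells, had 45.3, 45.9 and 54.0 CPM at 2h, against 15.9, 15.9 and 17.1 CPM in normoxia (1.57 ± 0.11). Zfp395, a zinc finger gene, had 28.7, 31.3 and 22.3 CPM at 2h, against 10.4, 11.9 and 11.8 CPM in normoxia.

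Clock genes moved in both directions, with 7 of 18 tested higher, 3 lower and a median of 0.45. In the nucleus of C1.1 5 of the 18 were higher and 4 lower, with a median of 0.04. Beside Bhlhe40 and Rora, the repressor gene Ciart had 12.3, 8.90 and 9.23 CPM at 2h, against 3.96, 3.51 and 3.73 CPM in normoxia (1.44 ± 0.21, adjusted p = 0.000409). Arntl, which codes for BMAL1, rose by 0.70 ± 0.16, Cry1 by 0.60 ± 0.17 and Per2 by 0.50 ± 0.13, calls lost without 3, 6 and 5 of the libraries. Nr1d1 and Nr1d2, the REV-ERB repressors, and Dbp, an output gene of the clock, fell (-1.26 ± 0.20, -0.55 ± 0.09 and -0.76 ± 0.15) on the log2 scale. Nr1d1 had 3.70, 5.12 and 4.90 CPM at 2h, against 9.40, 10.5 and 13.0 CPM in normoxia, with no overlap between the groups. Without normoxia replicate 1 the list had 4 higher members, and without replicate 1 or 2 at 2h 5. Time of day at harvest is not given in the labels, and its part was not tested.

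Some genes of glycolysis were higher at 2h. Of 27 tested genes for glucose uptake, glycolysis and the fate of pyruvate, 13 rose, 2 fell and 12 did not pass the test, with a median of 0.32. Without replicate 1 at 2h, without replicate 2 at 2h or without normoxia replicate 1, 12 rose and none fell. Pdk1, which shuts pyruvate out of mitochondria, had 58.9, 55.1 and 55.0 CPM at 2h, against 16.8, 20.3 and 23.2 CPM in normoxia (1.49 ± 0.12, adjusted p = 7.24e-08). Slc16a3, the lactate exporter MCT4, had 4.70, 2.84 and 2.67 CPM at 2h, against 0.185, 0.118 and 0.173 CPM in normoxia. That is the largest fold of the list (4.37 ± 0.36 on the log2 scale, adjusted p = 1.75e-07), though from under 1 CPM. Along the pathway, the hexokinases Hk2 and Hk1 rose by 0.78 ± 0.09 and 0.57 ± 0.10, the phosphofructokinases Pfkp and Pfkl by 0.85 ± 0.10 and 0.83 ± 0.11, Tpi1 and Pgam1, which act further down, by 0.44 ± 0.08 and 0.53 ± 0.08, and Gys1, the glycogen synthase, by 0.75 ± 0.11.

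Other enzymes of the pathway gave smaller values. Ldha, which turns pyruvate into lactate, had 1158, 1096 and 1189 CPM at 2h, against 1057, 1014 and 936 CPM in normoxia (0.20 ± 0.08, adjusted p = 0.15), and Pgk1 stood at 0.29 ± 0.09 (adjusted p = 0.0542). Neither passed the test at 2h. At 24h, against the same normoxic libraries, Pgk1 stood at 2.06. Gapdh, often used as a reference gene, had 1836, 2074 and 1902 CPM at 2h, against 1565, 1608 and 1472 CPM in normoxia (0.32 ± 0.09, adjusted p = 0.0404), and its call was lost whichever of the 6 libraries was left out (largest adjusted p = 0.183). Slc2a1, the glucose carrier GLUT1, had 49.3, 58.0 and 51.0 CPM at 2h, against 46.7, 40.6 and 39.2 CPM in normoxia, with an adjusted p of 0.0846. The 2 members called lower were Slc16a1, the lactate carrier MCT1 (-0.52 ± 0.13), and Slc2a3, the carrier GLUT3 (-0.49 ± 0.14), with adjusted p of 0.0213 and 0.0461, calls lost without 4 and 5 of the libraries. Ak4, an adenylate kinase of mitochondria, had 116, 101 and 99.0 CPM at 2h, against 42.7, 42.2 and 46.4 CPM in normoxia (1.27 ± 0.09).

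To show what stands before the starts of such genes, stretches of 30 bases with a HIF core were read from the 300-base promoter windows of RefSeq (GRCm38.p6), with the core ACGTG or GCGTG, on either strand, in capitals. The first 6 belong to genes that rose and the last 2 to genes that fell, shown because the same letters occur in both. Each is written 5′ to 3′ on the strand of its gene. They lie at chr11:120949041-120949070 (Slc16a3, plus strand), chr8:124949305-124949334 (Egln1, minus), chr12:54204086-54204115 (Egln3, minus), chr8:45999985-46000014 (Ankrd37, minus), chr7:138909524-138909553 (Bnip3, minus), chr2:71873134-71873163 (Pdk1, plus), chrX:20870072-20870101 (Timp1, plus) and chr7:99353393-99353422 (Serpinh1, minus).
Slc16a3: cgtgcgcgggggACGTGccgcgcgacggat
Egln1: gggccgtggtgtACGTGcagcgcgcgcgga
Egln3: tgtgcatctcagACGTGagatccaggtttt
Ankrd37: ttcactgcgCACGCGTGctgcggccgcctg
Bnip3: ggctccgccgccGCGTGcgtcccgccccgc
Pdk1: ccgcctacatggGCGTGtctttaaccaggg
Timp1: ggactgtgcatgACGTGgagctgggggaag
Serpinh1: accctgcttttcCACGTccaggaccgcgga
In Ankrd37 a core on each strand overlaps the other in 1 run. RefSeq windows were found for 9658 of the 14257 genes tested, 368 of the 493 higher and 358 of the 482 lower ones. A core was in 62.5% of the 496 windows of higher genes, 68.1% of the 439 windows of lower genes and 61.9% of all 12326 windows, so the share among lower genes was above both others. With ACGTG alone these shares were 33.1%, 28.7% and 25.5%, and 55.1% of the 78 windows of the HIF target and glycolysis lists held it. These 2 lists were written from general knowledge of such genes, so their share is no independent result. Neither core was found in the windows of Eno2, Galnt15 and Plaur, which says only that these letters are not in those windows.

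Histone demethylases, enzymes that use oxygen, had higher members and no lower ones. Of 22 tested genes of the JmjC demethylases and the related TET enzymes, 10 rose and none fell, with a median of 0.32. In the nucleus of C1.1 5 rose and none fell, with a median of 0.07. These are long genes, with a median exonic length of 9516.5 bases against 4046 for all genes. When a trend with exonic length was taken out of each library, 8 rose (median 0.26), and the part of length was not tested. Kdm3a, which demethylates H3K9, had 203, 211 and 207 CPM at 2h, against 104, 87.2 and 98.7 CPM in normoxia (2.14-fold, adjusted p = 1.35e-07). Kdm4b had 26.9, 29.5 and 29.1 CPM at 2h, against 14.0, 15.1 and 14.3 CPM in normoxia (0.98 ± 0.11), and in both genes the groups did not overlap. Tet2, which oxidises methylcytosine, rose by 0.89 ± 0.13, Kdm5b by 0.81 ± 0.12, Kdm6b by 0.86 ± 0.16 and Kdm7a by 0.78 ± 0.22. The call of Kdm7a was lost without any 1 of the 6 libraries compared (largest adjusted p = 0.175). Tet1 rose by 0.62 ± 0.18, a call lost without 4 of the libraries (largest adjusted p = 0.229). Without replicate 1 at 2h 7 members were called higher, as without normoxia replicate 1, and without replicate 2 at 2h 5.

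The lower genes were led by targets of the actin-linked factors SRF and YAP and of TGF-beta. Cyr61, a matricellular protein and a standard YAP target, had 30.3, 33.0 and 33.2 CPM at 2h, against 78.9, 83.7 and 62.2 CPM in normoxia (-1.22 ± 0.13, adjusted p = 9.63e-06). Its relative Ctgf had 16.2, 17.4 and 15.1 CPM at 2h, against 39.9, 34.8 and 24.4 CPM in normoxia (-1.02 ± 0.15, adjusted p = 0.000484). Thbs1, thrombospondin 1, which restrains vessel growth, had 54.2, 63.6 and 58.2 CPM at 2h, against 138, 151 and 106 CPM in normoxia (-1.16 ± 0.14, adjusted p = 5.95e-05). All 3 fell to less than the lowest normoxic library in each library at 2h, which the rule that named them required. Of 27 tested members of this list 14 fell and 2 rose, with a median of -0.37. Ankrd1, another YAP target, fell (-0.64 ± 0.10) and Smad7, an inhibitor of TGF-beta signalling, (-0.59 ± 0.11). Actg1, a cytoplasmic actin, fell (-0.45 ± 0.10, lost without normoxia replicate 2). The members that rose were Filip1l and Tgfb2, a TGF-beta ligand. Tgfb2 was at 3.60 ± 0.318 CPM at 2h and 1.93 ± 0.388 CPM in normoxia (SD, n = 3 each), a call lost without any 1 of the 6 libraries (largest adjusted p = 0.141). Leaving out replicate 1 at 2h gave 11 lower members and leaving out normoxia replicate 1 gave 10, with none higher in either.

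The contractile genes that this list shares with the smooth muscle markers fell too. Acta2, smooth muscle actin, had 699.8, 802 and 780.1 CPM at 2h, against 1032, 1235 and 1060.4 CPM in normoxia (-0.54 ± 0.09, adjusted p = 0.00142). Tagln, an actin-binding protein of smooth muscle, had 91.0, 91.9 and 95.0 CPM at 2h, against 155, 152 and 138 CPM in normoxia (-0.68 ± 0.11), and Myl9, a myosin light chain, fell (-0.59 ± 0.10). Of 12 tested smooth muscle and mesenchyme markers 5 fell and none rose, with a median of -0.57 (-0.28 without normoxia replicate 1), and among them was Dcn, the proteoglycan decorin (-0.70 ± 0.21, adjusted p = 0.0487, lost without 5 of the libraries). Without normoxia replicate 1 or without replicate 1 at 2h 3 of them fell. The part of the cells behind these markers in the other results was not tested. In bulk RNA, fewer cells that make these RNAs and less RNA per cell cannot be told apart. Itgb1, the integrin subunit beta 1, had 179, 209 and 213 CPM at 2h, against 395, 277 and 257 CPM in normoxia (-0.63 ± 0.13), with normoxia replicate 1 well above the rest. Of 17 tested integrins 4 fell, Itga3, Itga6, Itgav and Itgb1, and none passed the test without normoxia replicate 1 or without replicate 1 at 2h, and 1 without replicate 2 at 2h.

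Timp1, an inhibitor of matrix proteases, had 48.8, 59.1 and 55.7 CPM at 2h, against 102, 98.0 and 80.0 CPM in normoxia (-0.77 ± 0.11), and Plaur, the urokinase receptor, had 29.7, 29.8 and 28.5 CPM at 2h, against 51.4, 56.1 and 40.8 CPM in normoxia (-0.75 ± 0.12). Sema3c, a secreted semaphorin, had 51.2, 42.2 and 49.2 CPM at 2h, against 99.7, 81.1 and 74.7 CPM in normoxia (-0.84 ± 0.11), and Crim1, a membrane protein that binds BMPs, had 87.1, 94.2 and 95.7 CPM at 2h, against 182, 149 and 139 CPM in normoxia (-0.76 ± 0.10). In these 4 genes the groups did not overlap, which the rule that named them required. Csf1, the growth factor of macrophages, fell (-0.65 ± 0.10), Hbegf, a ligand of the EGF receptor, (-0.63 ± 0.12) and Epha2, an ephrin receptor, (-0.53 ± 0.10). Of 16 tested angiogenic factors other than VEGF, 6 fell and 1, Apln, rose, with a median of -0.26. Col8a1, a collagen chain of vessel walls, fell (-0.73 ± 0.14). Tmsb4x, thymosin beta 4, which binds free actin, was the most abundant of the 11 at 321, 237 and 323 CPM at 2h, against 613, 537 and 399 CPM in normoxia (-0.81 ± 0.15).

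Fast signalling genes showed no common direction at 2h. Of 29 immediate early genes tested, 5 fell and 2 rose, with a median of 0.06, and those that fell were Cyr61, Ctgf, Junb, Klf10 and Ier5. Junb, a subunit of the factor AP-1, fell (-0.41 ± 0.11), while Jund, another, rose (0.50 ± 0.14), as did Klf4. Klf10 and Ier5 fell (-0.47 ± 0.12 and -0.50 ± 0.13), and the calls of these 4 were lost without 4 to 6 of the libraries. Without normoxia replicate 1 or without replicate 2 at 2h 2 members of the list fell, without replicate 1 at 2h 3, and none rose. Dusp5, a nuclear phosphatase of ERK, had 20.5, 16.2 and 14.4 CPM at 2h, against 26.0, 37.2 and 29.4 CPM in normoxia (-0.85 ± 0.16, adjusted p = 0.00313), while Spred2 and Spry4, which dampen the Ras to ERK pathway, rose by 0.75 ± 0.11 and 0.61 ± 0.14, the last lost without normoxia replicate 2 or 2h replicate 1. Errfi1, a feedback inhibitor of the EGF receptor, fell (-0.53 ± 0.09). Id1, Id2 and Id3, the dominant negative helix-loop-helix factors downstream of BMP, fell (-0.40 ± 0.11, -0.32 ± 0.09 and -0.37 ± 0.10), each call lost without 4 to 6 of the libraries. Of 18 NF-kB targets and cytokines 1 rose, Tnfaip3, which limits NF-kB (0.61 ± 0.13), and 1 fell, Csf1. None of 11 interferon response genes passed the test.

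**Figure D2:**
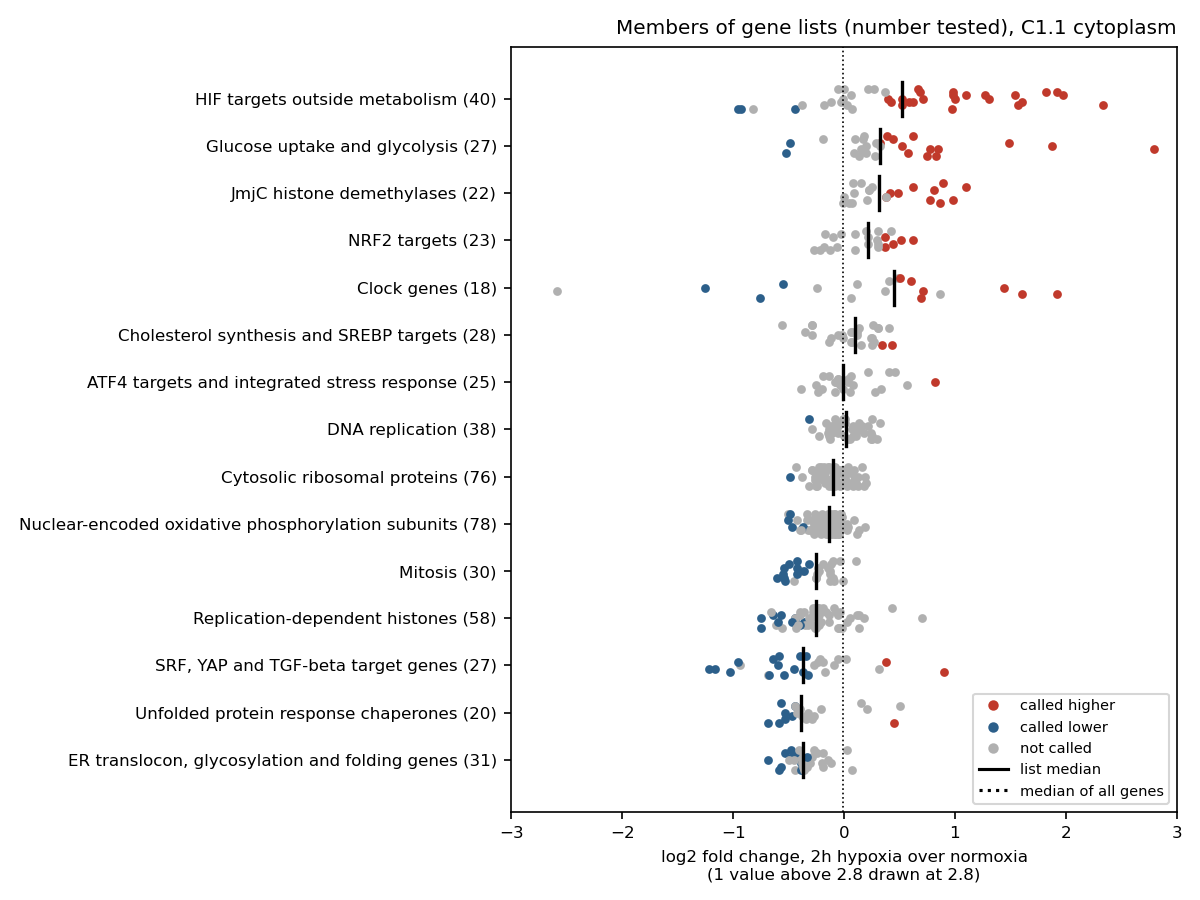
Log2 fold change of 2h hypoxia over normoxia in C1.1 cytoplasm (horizontal axis) for each tested member of 15 gene lists, with the number tested after the name, called genes in colour, a black bar at each list's median and a dotted line at the median of all genes. The HIF target list has its median at 0.52 and 23 of 40 members called higher, and the 2 lists of the endoplasmic reticulum at the bottom have theirs at -0.39 and -0.37. Slc16a3, at 4.37, is drawn at the right edge.

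Some genes of mitosis fell by small amounts, while those of DNA replication gave 1 call. Of 30 tested mitosis genes 11 fell and none rose, with a median of -0.25. Ube2c, the E2 enzyme of the anaphase promoting complex, had 105, 123 and 116 CPM at 2h, against 178, 183 and 163 CPM in normoxia (-0.61 ± 0.09, adjusted p = 0.000641). Cdc20, its activator, had 112, 128 and 129.9 CPM at 2h, against 186, 186 and 169 CPM in normoxia (-0.55 ± 0.10), and in both genes the groups lay apart. Hmmr, a spindle protein, fell (-0.55 ± 0.10), Aurka, a centrosome kinase, (-0.53 ± 0.09), Ccnb1, the mitotic cyclin, (-0.42 ± 0.09) and Plk1, a mitotic kinase, (-0.36 ± 0.09). The calls of Ccnb1 and Plk1 were lost without 3 and 5 of the libraries. Mki67, the proliferation antigen, had 363, 492 and 453 CPM at 2h, against 396, 386 and 429.8 CPM in normoxia (0.11 ± 0.11, adjusted p = 0.615). Of 38 DNA replication genes 1 passed the test, Rrm2, a subunit of ribonucleotide reductase (-0.31 ± 0.09, lost without 5 of the libraries), and the median was 0.02. Ccnd1, the cyclin D that opens the cell cycle, fell (-0.42 ± 0.08). Without replicate 1 at 2h 7 mitosis genes were called, and without normoxia replicate 1 or replicate 2 at 2h 6.

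Replication-dependent histone genes, whose mRNAs end without a poly(A) tail, leaned down: 10 of 58 tested fell and none rose, with a median of -0.26. Hist1h3b had 109, 88.2 and 64.6 CPM at 2h, against 152, 159 and 128 CPM in normoxia (-0.74 ± 0.18, adjusted p = 0.0182). It is the leading lower gene that lost its call, without 4 of the libraries (largest adjusted p = 0.106). Hist1h2bk and Hist1h1d fell (-0.57 ± 0.13 and -0.44 ± 0.10), calls lost without 3 and 4 of the libraries. Histone genes share near-identical coding stretches, so single genes are uncertain. Of the 10 calls none was made without normoxia replicate 1, 5 without replicate 1 and 1 without replicate 2 at 2h, and when a trend with exonic length was taken out of each library, 2 of the 58 fell.

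Some RNAs for the folding and entry of secreted proteins in the endoplasmic reticulum fell in the cytoplasm at 2h. Of 20 tested chaperones of the unfolded protein response 7 fell and 1 rose, with a median of -0.39, and of a list of 31 genes for translocation, glycosylation and folding, put together after values were seen, 10 fell and none rose, with a median of -0.37. The lists share some members. Serpinh1, the collagen chaperone HSP47, a leading lower gene and a member of neither list, had 267, 255 and 241 CPM at 2h, against 508, 429 and 349 CPM in normoxia (-0.75 ± 0.12, adjusted p = 0.000731). Calr, the calcium-binding chaperone calreticulin, had 415, 403 and 415 CPM at 2h, against 778, 568 and 505 CPM in normoxia (-0.59 ± 0.13, adjusted p = 0.0107). Its 3 libraries at 2h were close together and normoxia replicate 1 was far above the other two normoxic ones. Hspa5, the chaperone BiP, had 103 ± 4.69 CPM at 2h and 143 ± 33.7 CPM in normoxia (SD, n = 3 each; log2 fold change -0.47 ± 0.14, adjusted p = 0.0461 with edgeR), and normoxia replicate 3 lay just above the values at 2h.

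Pdia6, Pdia4 and Dnajb11 fell (-0.68 ± 0.15, -0.57 ± 0.13 and -0.53 ± 0.12), and Hsp90b1 (-0.54 ± 0.14). Rpn2, of the oligosaccharyl transferase, fell (-0.53 ± 0.12), Sec61a1, of the translocon pore, (-0.39 ± 0.09) and Tmed7, a cargo receptor of the p24 family, (-0.56 ± 0.13). Herpud1, which serves the breakdown of misfolded proteins and is itself raised by this stress response, rose by 0.45 ± 0.13 (lost without 4 of the libraries). These calls leaned on single libraries. Without normoxia replicate 1 the chaperone list had 0 members lower and 1 higher (median -0.25) and the longer list 1 lower (median -0.26), without replicate 2 at 2h these were 0 and 3 lower, and without replicate 1 at 2h 3 and 4 lower.

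Among other stress programmes the NRF2 targets leaned up, and most of the others gave few calls. Of 23 NRF2 targets 5 rose and none fell (median 0.22), Hmox1 and Gclc among them and also Sqstm1, the autophagy receptor p62, with 537, 496 and 491 CPM at 2h, against 354, 357 and 357 CPM in normoxia (0.51 ± 0.09), Gstm1, a glutathione transferase (0.44 ± 0.09), and Fth1, the ferritin heavy chain (0.37 ± 0.09, lost without 4 of the libraries). The list had 3 higher members without replicate 1 or 2 at 2h or without normoxia replicate 1. Of 25 ATF4 targets 1 rose, Vldlr (0.82 ± 0.23), and of 28 genes of cholesterol synthesis and SREBP 2 rose, Acaca (0.34 ± 0.09) and Lss (0.43 ± 0.11). Each of these 3 calls was lost without 4 or 5 of the libraries. Of 18 heat shock genes Bag3 rose (0.43 ± 0.12) and Chordc1 fell (-0.34 ± 0.09), and of 19 p53 targets Plk2 fell (-0.36 ± 0.09). The calls of Bag3 and Chordc1 were lost without 5 of the libraries and that of Plk2 without 4, and neither list had a call without replicate 1 or 2 at 2h or without normoxia replicate 1. Of 20 glucocorticoid and FOXO targets 4 rose and 2 fell, with Ccng2, Bcl6, Foxo1 and Pik3r1 (0.49 ± 0.09) higher and Errfi1 and Sgk1 (-0.35 ± 0.09, lost without 4 of the libraries) lower, and 2 rose and 1 fell without any 1 of those 3 libraries.

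Genes of translation and of mitochondria gave few calls. Of 76 cytosolic ribosomal proteins 1 fell, Rps27l (-0.49 ± 0.14, lost without 5 of the libraries), and the median was -0.10. Of 51 translation initiation factors 3 fell, Eif2s1, Eif3m and Eif4a2, the last with 174, 149.9 and 174 CPM at 2h, against 276, 243 and 213 CPM in normoxia (-0.56 ± 0.12). Of 78 nuclear-encoded subunits of oxidative phosphorylation 4 fell, Ndufb4, Ndufb6, Cox7a2 (-0.47 ± 0.12) and Ndufb9 (-0.37 ± 0.09). A negative value stood in 71 of the 78, beside 7390 of all 14257 genes, with a median of -0.14. Without normoxia replicate 1 or without replicate 2 at 2h neither list had a lower member, and without replicate 1 at 2h 1 initiation factor and 2 subunits fell. Of 8 mitochondrially encoded mRNAs tested 3 rose, all at low levels in this fraction. Of these mt-Cytb had 10.1, 8.82 and 7.81 CPM at 2h, against 5.40, 5.25 and 4.84 CPM in normoxia (0.79 ± 0.19), mt-Nd1 14.9, 13.0 and 12.7 CPM at 2h, against 7.81, 9.47 and 9.51 CPM in normoxia (0.60 ± 0.15), and mt-Atp8 passed the test through replicate 1 at 2h, with 1.63, 0.433 and 0.445 CPM at 2h, against 0, 0.118 and 0.0691 CPM in normoxia. Without replicate 1 at 2h, without replicate 2 at 2h or without normoxia replicate 1 none of the 3 was called. Of 22 decay factors for AU-rich RNAs 1 rose, Xrn1 (0.32 ± 0.09, lost without 7 of the libraries). Of 47 snoRNA and scaRNA rows 1 fell, Snora73b (-0.83 ± 0.25, adjusted p = 0.0486), with a median of -0.55. That call was lost without 5 of the libraries and in 12 of 18 alternatives in all, and with the trend in exonic length removed the median was -0.16.

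Vegfa, the growth factor gene the study is about, rose by little at 2h in C1.1. It had 50.2, 59.9 and 53.5 CPM at 2h, against 39.8, 42.4 and 39.7 CPM in normoxia, and its log2 fold change was 0.42 ± 0.10 (adjusted p = 0.0152). The groups did not overlap, and the call was lost without normoxia replicate 1 or without replicate 2 at 2h (largest adjusted p = 0.105). At 24h, against the same normoxic libraries, it stood at 0.88. Vegfb, a related ligand, rose by 0.50 ± 0.12, and Nrp1, the co-receptor neuropilin 1, fell (-0.46 ± 0.11), out of 7 tested VEGF ligands and receptors. The call of Vegfb was lost without 4 of the libraries and that of Nrp1 without 5, and none of the 7 was called without normoxia replicate 1 or without replicate 2 at 2h. Sfmbt2, the host gene of the removed hairpin, had 33.6, 33.3 and 27.4 CPM at 2h, against 20.3, 22.6 and 25.6 CPM in normoxia (0.46 ± 0.12, adjusted p = 0.0221), a call lost without 4 of the libraries. Map2k1, the kinase MEK1, had 144, 153 and 152 CPM at 2h, against 123, 127 and 116 CPM in normoxia (0.30 ± 0.09, adjusted p = 0.0432), a call lost without any 1 of the 6. Yy1, a zinc finger factor, stood at -0.07 ± 0.10 and did not pass the test (adjusted p = 0.765). The counts of Sfmbt2 do not check the deletion, which lies in an intron.

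Whether the clone answered 2h of hypoxia otherwise than its parent was tested as the difference of the 2h responses, C1.1 minus C166, over the 18 cytoplasmic libraries. No gene passed (0% of 14998 tested with edgeR's quasi-likelihood test). At an unadjusted p under 0.05 there were 812 genes, near the number that this threshold gives when no gene differs. How near depends on single libraries. The count was 533 without C1.1 normoxia replicate 1 and 1385 without C166 normoxia replicate 3, the lowest and highest with 1 library left out. DESeq2 called 9, 4 more positive and 5 more negative in C1.1. Without replicate 1 of C166 in normoxia, which detected 11903 genes against 16393 and 16712 in its partners, the count was also 0. Simulated libraries of the same layout gave a call to 16.4% of genes set to differ 1.5-fold, 82.1% at 2-fold and 100% at 4-fold. They were drawn with a biological coefficient of variation of 0.13, whereas the fit of these 18 libraries had 0.213. The shares are thus for quieter data, in which many differences under 2-fold were already missed. What this test could detect at the spread of the real libraries was not simulated.

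The genes with the smallest p in this test are given as values. Vegfa, scaled over both lines, had 48.2, 58.1 and 51.9 CPM at 2h, against 38.1, 40.7 and 38.4 CPM in normoxia for C1.1, and 66.8, 58.6 and 59.6 CPM at 2h, against 20.8, 29.4 and 29.9 CPM in normoxia for C166. At 2h each C1.1 library lay below each C166 library, by little at the nearest, and in normoxia each lay above. The response of C1.1 differed from that of C166 by -0.77 ± 0.17 on the log2 scale (95% interval -1.11 to -0.43), with an adjusted p of 0.484, which does not pass. Bnip3 had 195, 160.3 and 189 CPM at 2h, against 51.3, 42.3 and 43.7 CPM in normoxia for C1.1, and 201, 212 and 164 CPM at 2h, against 26.8, 25.6 and 24.5 CPM in normoxia for C166. Here the levels at 2h overlapped between the lines and the normoxic level was higher in C1.1 (difference -0.92 ± 0.16, interval -1.23 to -0.61, adjusted p = 0.178, and 0.0779 without C166 replicate 1 in normoxia). Mxd4 went the other way, with 28.0, 24.0 and 22.8 CPM at 2h, against 11.2, 14.9 and 16.4 CPM in normoxia for C1.1, and 8.95, 12.1 and 11.3 CPM at 2h, against 16.4, 11.9 and 12.5 CPM in normoxia for C166 (difference 1.14 ± 0.24, adjusted p = 0.403). Arrdc3, an arrestin domain gene, had 53.8, 48.8 and 59.3 CPM at 2h, against 62.3, 57.0 and 51.3 CPM in normoxia for C1.1, and 69.8, 73.7 and 65.8 CPM at 2h, against 48.9, 44.1 and 38.2 CPM in normoxia for C166 (difference -0.75 ± 0.15, adjusted p = 0.403). Pgm5, a phosphoglucomutase relative at very low counts, gave a fitted difference of 4.51 ± 0.96 (adjusted p = 0.403), which depends on the prior count. Sfmbt2 differed by 0.18 ± 0.20 (interval -0.21 to 0.57), Map2k1 by -0.40 ± 0.19 (-0.77 to -0.04) and Hif1a by 0.16 ± 0.12 (-0.07 to 0.39), none past the test.

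**Figure D3:**
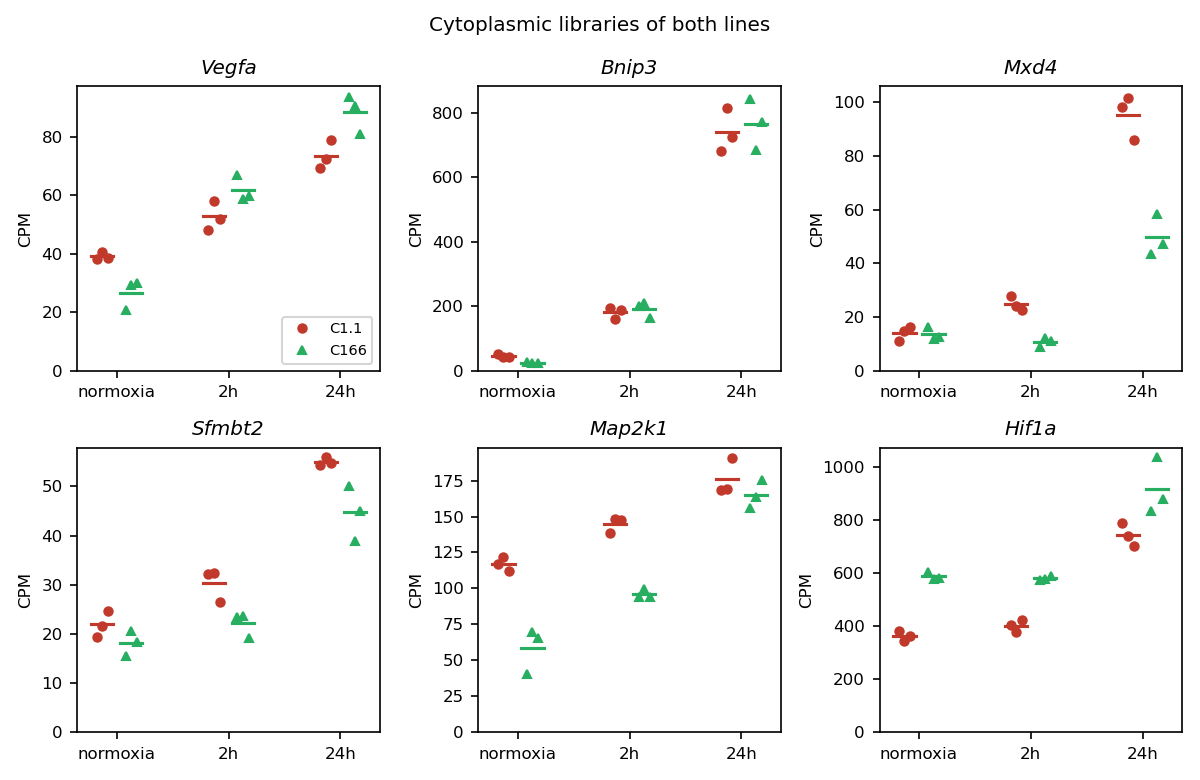
CPM in each cytoplasmic library of C1.1 (circles) and C166 (triangles) in normoxia, at 2h and at 24h of hypoxia for 6 genes, scaled over all 18 libraries, with a bar at each mean of 3 libraries. In normoxia C1.1 lies above C166 in Vegfa and Bnip3, at 2h it lies below C166 in Vegfa and overlaps it in Bnip3, and Mxd4 at 2h is higher in every C1.1 library than in any of C166.

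The nuclear RNA of the same line gave 519 calls at 2h (3.47% of 14963 tested), 349 higher and 170 lower. Of the 488 genes called higher in the cytoplasm with a nuclear value, 404 were positive in the nucleus and 142 were called higher there, beside a background of 2.33% called higher. Of the 481 called lower, 325 were negative in the nucleus, 62 were called lower and 3 called higher, beside a background of 1.14% called lower. Over all 14963 genes tested in the nucleus 7525 were positive and 7438 negative. Over 7128 genes above the median cytoplasmic level the changes in the fractions had a Pearson r of 0.34, across genes, which are not independent replicates. HIF targets had a median of 0.52 in the cytoplasm and 0.81 in the nucleus, mitosis genes -0.25 and -0.32, and the SRF, YAP and TGF-beta list -0.37 and -0.35. The medians of the lists of the endoplasmic reticulum differed in sign, with -0.39 and -0.37 in the cytoplasm and 0.10 and 0.10 in the nucleus, where 1 of the 20 and none of the 31 were called, that one higher. So did those of the histones (-0.26 and 0.17) and of oxidative phosphorylation subunits (-0.14 and 0.27). Cytosolic ribosomal proteins (-0.10 and 0.14) and snoRNA and scaRNA rows (-0.55 and 0.06) did so as well, among other lists. Genes with short exons in general had this too, with medians of -0.11 and 0.10 in the shortest of 5 groups by length. These medians are without adjustment for length, and its part in them was not tested.

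The difference itself, cytoplasm minus nucleus, was tested over the 18 libraries of C1.1, a test added after values were seen. It called 54 of 15735 genes (0.343%), 3 more positive (0.0191%) and 51 more negative (0.324%) in the cytoplasm. The count was 465 with DESeq2 and 0 without nuclear normoxia replicate 3, 1 without cytoplasmic normoxia replicate 1 and 429 without nuclear 2h replicate 3, so the count rests on single libraries. In simulated libraries the test called 14.9% of genes set to differ 1.5-fold, 73.1% of those at 2-fold and 100% of those at 4-fold. These too were drawn with a biological coefficient of variation of 0.13, and whether the real libraries of this fit match it was not checked. Of the 40 HIF targets it called 2, Bnip3 and Fam162a, and of the 27 genes of glycolysis 2, Pdk1 and Slc16a1, all more negative in the cytoplasm. Bnip3 and Pdk1 rose in both fractions, and their calls in this test were lost in 8 and 1 of 14 alternatives. Bnip3 had 109.6, 106 and 101 CPM at 2h, against 16.9, 18.1 and 15.0 CPM in normoxia in the nucleus, a log2 fold change of 2.67 (difference -0.71 ± 0.16, adjusted p = 0.0487), and Pdk1 had 54.7, 54.2 and 49.4 CPM at 2h, against 9.67, 10.9 and 8.84 CPM in normoxia there, a log2 fold change of 2.43 (difference -0.97 ± 0.16, adjusted p = 0.0139). Rora, Eno2, Bhlhe40 and Slc16a3, with 1.92, 1.88, 1.61 and 4.37 in the cytoplasm, stood lower in the nucleus, at 1.67, 1.73, 1.47 and 3.32 on the log2 scale, and these differences did not pass.

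None of the 20 chaperones and none of the 31 genes for translocation, glycosylation and folding passed this test, and 1 of 60 histones and 5 of 78 oxidative phosphorylation subunits did, each more negative in the cytoplasm. Others called in this test fell in the cytoplasm and not in the nucleus. Serpinh1 had 753, 779 and 629 CPM at 2h, against 756, 735 and 769 CPM in normoxia in the nucleus (-0.06, adjusted p = 0.773), and the difference of -0.71 ± 0.16 passed (adjusted p = 0.0382). That call was lost in 9 of 14 alternatives. Calr had 1425, 1416 and 1371 CPM at 2h, against 1398, 1220.0 and 1322 CPM in normoxia in the nucleus (0.10), and its difference of -0.70 ± 0.16 did not pass (adjusted p = 0.053). Prdx4, a peroxidase of the endoplasmic reticulum, fell (-0.52 ± 0.11, lost without 3 of the libraries) in the cytoplasm and had 131, 143 and 109 CPM at 2h, against 102, 97.9 and 94.7 CPM in normoxia in the nucleus, where it rose (0.38, adjusted p = 0.0446). Lamp2, of the lysosome membrane, fell (-0.49 ± 0.14, lost without 4 of the libraries) in the cytoplasm and rose by 0.37 in the nucleus (adjusted p = 0.0494). Acta2 fell in both, with 399, 405 and 419 CPM at 2h, against 573, 616 and 560.5 CPM in normoxia in the nucleus (-0.52, adjusted p = 0.000388), and its difference of -0.04 ± 0.13 did not pass. Eef2, an elongation factor of translation, was one of the 3 more positive in the cytoplasm, rising there by 0.35 ± 0.09 (lost without 4 of the libraries) against -0.22 in the nucleus (difference 0.55 ± 0.12, adjusted p = 0.0382). The difference calls of Prdx4, Lamp2 and Eef2 were lost in 3, 8 and 9 of 14 alternatives.

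**Figure D4:**
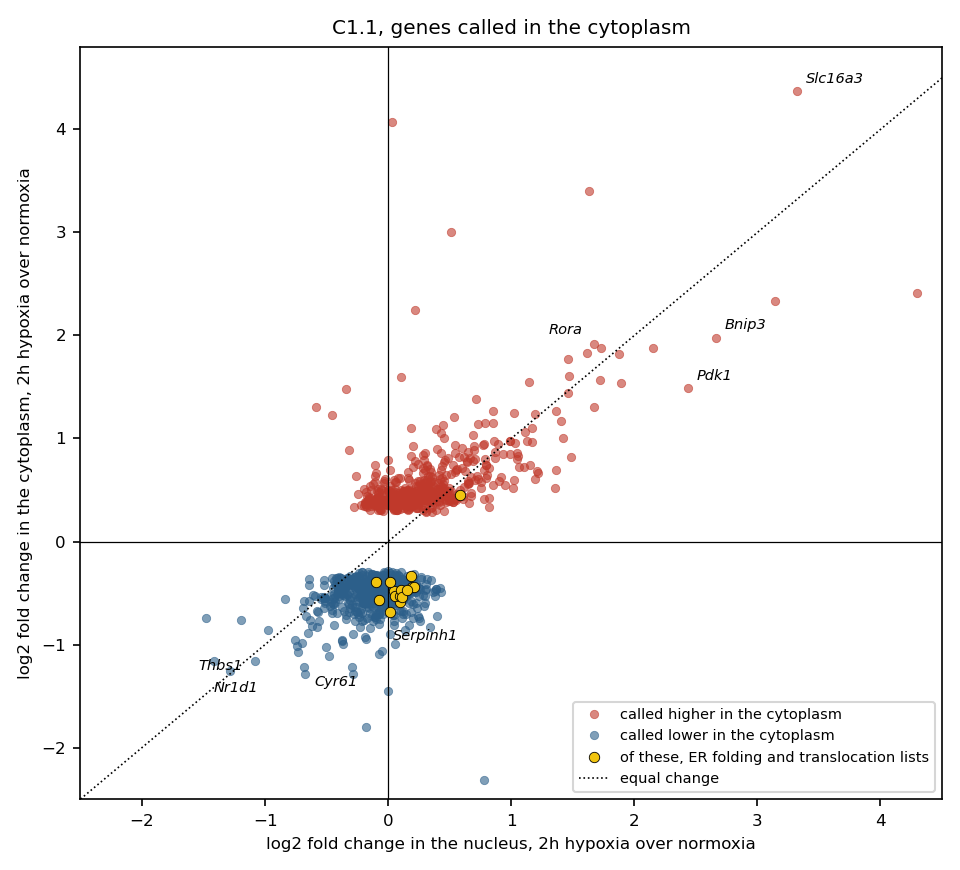
Log2 fold change of 2h hypoxia over normoxia in C1.1 cytoplasm (vertical axis) and nucleus (horizontal axis) for all but 1 of the 969 genes called in the cytoplasm with a nuclear value, higher in red, lower in blue, and members of the endoplasmic reticulum lists in yellow, with a dotted line of equal change. Bnip3 and Pdk1 lie below the line, and most of the yellow points lie below 0 in the cytoplasm and near or just above 0 in the nucleus. The band without points around 0 on the vertical axis follows from the choice of called genes.

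The cytoplasmic changes ran with the length of the gene's exons. Among 8984 protein-coding genes above a mean log2 CPM of 3, the median log2 fold change was -0.11 in the shortest and 0.09 in the longest of 5 groups by length (Spearman rho 0.29 across genes). In the shortest group 133 genes were called lower and 33 higher, and in the longest 54 lower and 165 higher. In the nucleus of C1.1 the medians ran the other way, 0.10 and -0.03. Per library, the short genes were above the mean of the 9 libraries in normoxia replicates 1 and 2 (medians 0.11 and 0.17) and near it in the others of both groups (-0.06 to 0.05), and the part of RNA length or library quality in this was not tested. The higher genes had a median exonic length of 6241 bases, the lower ones 3662 and all genes 4046. With each library's length trend removed, an alternative added after values were seen, 430 genes were higher and 430 lower, 749 of them among the 975 calls, and the HIF list had 24 higher and 3 lower members. The endoplasmic reticulum lists then had 6 and 10 lower members. Other lists moved by more: 1 subunit of oxidative phosphorylation fell instead of 4 (median -0.05 in place of -0.14), 1 of the Notch, Wnt and BMP targets fell instead of 5, 2 histones instead of 10, no gene of cholesterol synthesis rose instead of 2, and 8 NRF2 targets rose instead of 5. The single calls among ribosomal proteins, DNA replication genes and decay factors were gone, Snora73b was no longer called and another snoRNA or scaRNA row rose.

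**Figure D5:**
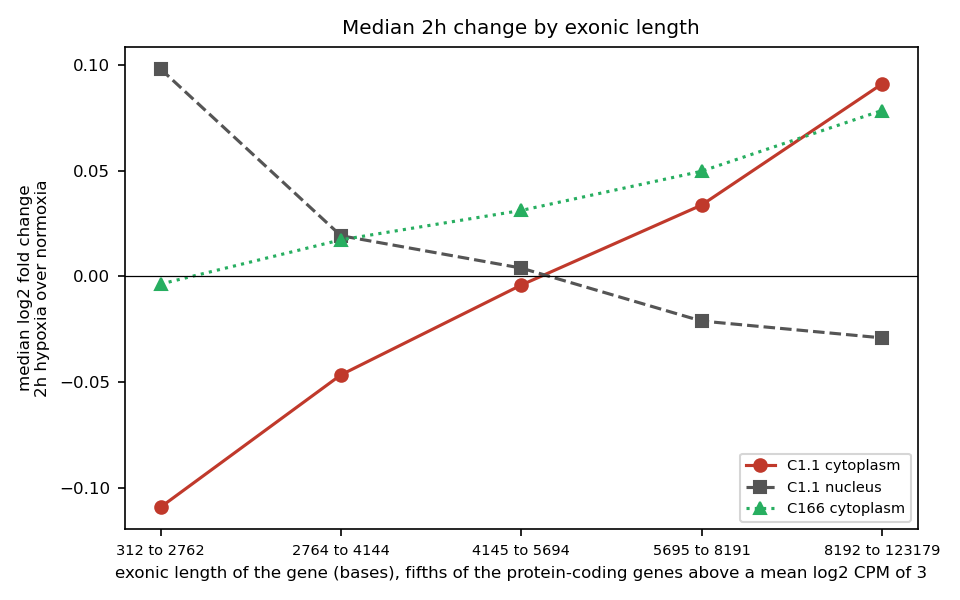
Median log2 fold change of 2h hypoxia over normoxia (vertical axis) in 5 groups of 8984 protein-coding genes by exonic length in bases (horizontal axis), for C1.1 cytoplasm, C1.1 nucleus and C166 cytoplasm. From the shortest to the longest group the medians are -0.11 to 0.09 in C1.1 cytoplasm, 0.10 to -0.03 in C1.1 nucleus and -0.00 to 0.08 in C166 cytoplasm.

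Side by side with 24h, against the same normoxic libraries, some genes were far from their 24h values and others near them. Ndrg1 stood at 1.54 at 2h and 4.91 at 24h, Pdk1 at 1.49 and 4.33, and Egln1 at 0.98 and 3.33. Egln3 was closer, with 1.82 and 2.40, as was Ak4 with 1.27 and 1.83. Hmox1 was 0.62 at 2h and -0.84 at 24h, Lox -0.45 and 1.42, and Ankrd1 -0.64 and -0.09, the last not past the test at 24h (adjusted p = 0.476). The 24h values share their normoxic libraries with those at 2h, and differences between the times were not tested here. Galnt15, a glycosyltransferase gene, had 6.97, 9.65 and 8.74 CPM at 2h, against 3.22, 3.67 and 3.77 CPM in normoxia, 1.25 at 2h and 3.90 at 24h.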

How the data were processed

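RNA-seq libraries came from 2 cell lines (C1.1 and C166), 2 fractions and 3 oxygen conditions, with 3 libraries in each of 12 groups. Per the labels and the study's methods, the authors made stranded libraries depleted of ribosomal RNA and aligned paired reads to GRCm38 with Bowtie2 2.2.2 and TopHat2 2.0.11. Cufflinks 2.2.1, Cuffdiff, edgeR and featureCounts stand in the submitters' processing notes as well, and which of them made the counts and how it used strand is not given in the sources used here, so overlapping genes cannot be told apart. The authors deposited raw counts, whole numbers per gene symbol with no normalization, in 26400 rows. The other 87 columns of the deposited table were not used. They hold normalized counts and the authors' own comparisons (fold changes and p-values). The C166 nuclear libraries were not used here.

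R 4.3.3, edgeR 4.0.16, limma 3.58.1 and DESeq2 1.42.0 were used. The 9 cytoplasmic libraries of C1.1 were fitted in 3 groups (filterByExpr, TMM, quasi-likelihood F-test, Benjamini-Hochberg, called at an adjusted p under 0.05). This fit leaves out C166, since 1 of its normoxic libraries stands apart. The common biological coefficient of variation was 0.129. The difference between the lines was fitted over 18 cytoplasmic libraries, the nucleus over 9, and cytoplasm minus nucleus over the 18 libraries of C1.1. CPM are TMM-scaled, SE is the absolute log2 fold change divided by the root of F, and ± after a log2 value is SE. Intervals are 1.96 SE to either side. Positions and exonic lengths are of GENCODE M21 on GRCm38, matched by symbol (24929 symbols). Counts of any pair of libraries within a group had a chi-square of 12.9 to 23.3 per degree of freedom, so none is a copy. Tested on simulated data, the fit of the 9 libraries recovered 59.7% of 1.5-fold and 100% of 2-fold and 4-fold changes, with 6 false calls among 14019 genes. Same-numbered libraries at 2h and in normoxia did not deviate together (r of -0.01, -0.03 and 0.01), so they were not treated as pairs.

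The rule for naming took the 12 higher and 12 lower genes by size of change among the called genes whose level was over the median (a mean log2 CPM of 4.40) with groups that do not overlap and a symbol that is not a predicted gene's, up to 4 genes of each list by p, the 6 genes of each sign with the smallest p for the difference of the lines, since none passed, and 5 genes of the study. Of the 12 lower genes 1 is not reported here. The comparison and the gene lists were chosen with earlier results of these data known. Other genes named, the list of translocation, glycosylation and folding genes, the lists of p24 receptors, collagens (of 22 tested Col5a2 and Col8a1 fell) and integrins, the test of cytoplasm minus nucleus and the length alternative were chosen after values were seen. None of 7 nuclear-retained RNAs, 5 endothelial, 3 blood and 2 epithelial marker genes tested was called, 1 of 12 G1 genes fell (Ccnd1) and 5 of 14 Notch, Wnt and BMP targets fell (Hes1, Id1, Id2, Id3 and Smad7), 2 of them without replicate 1 at 2h and 1 without replicate 2 at 2h or normoxia replicate 1. Of the 9 p24 receptors 5 fell (Tmed1, Tmed3, Tmed5, Tmed7, Tmed9) and Tmed8 rose, with none lower without replicate 1 or 2 at 2h. Of a list of 14 tested Dusp, Spry and Spred genes 2 rose (Spred2 and Spry4, which are not phosphatases) and 1 fell (Dusp5). Of 7 genes of the study 4 rose. Alternatives were DESeq2, other scalings, no filter, other sets of libraries, the replicate block, a 2-fold minimum and each library left out.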

Additional observations from a re-analysis of the deposited data

Results flagged for a closer look

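12 of the genes named passed the test of the difference between the 2h responses of cytoplasm and nucleus in C1.1 (edgeR, adjusted p under 0.05, log2, cytoplasm minus nucleus). Over all genes 54 of 15735 passed it (0.343%), and Prdx4, Lamp2 and Eef2 were named after values were seen. The difference was -0.71 for Bnip3, -0.97 for Pdk1, -0.71 for Sema3c, -0.71 for Serpinh1, -0.83 for Slc16a1, -0.87 for Cox7a2, -0.70 for Ndufb9, -0.94 for Rps27l, -0.92 for Prdx4, -0.87 for Lamp2 and -1.32 for Tmem45a, a transmembrane protein gene, and 0.55 for Eef2. Of these Tmem45a did not pass the test in the cytoplasm (0.38 ± 0.16, adjusted p = 0.147) and rose in the nucleus by 1.68 (adjusted p = 5.3e-07). Its counts were 0 in all 3 normoxic cytoplasmic libraries of C166, so no fold is given for that line. The test was added after values were seen and depends on single libraries. Its calls were lost in 9 of 14 alternatives for Serpinh1, Cox7a2, Rps27l and Eef2. They were lost in 8 for Bnip3, Sema3c, Slc16a1, Ndufb9 and Lamp2, in 3 for Prdx4, in 2 for Tmem45a and in 1 for Pdk1.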

How the results depend on the processing

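The 975 calls at 2h in C1.1 cytoplasm became 292 (163 higher, 129 lower) with all 18 cytoplasmic libraries in the fit (751 without C166 normoxia replicate 1), 1465 (768 higher) with DESeq2 and 64 (47 higher, 17 lower) where a 2-fold change was required, and 733 genes were lower with no filter on low counts. Leaving out 1 of the 9 libraries in turn gave 286 to 1251 calls (155 to 606 higher and 127 to 645 lower). With the replicate number as a block there were 915 calls, 857 of them among the 975, and the count between the lines stayed at 0. Of the named genes 8 lost their call under it. List counts that moved by over 1.5 times were 3 lower NF-kB targets for 1, 1 lower glycolysis gene for 2, 1 higher gene for 2 among immediate early genes and in the SRF, YAP and TGF-beta list, 1 higher histone for 0, and 0 for 1 in DNA replication, RNA decay and the snoRNA rows. The labels tie the numbers to no shared culture or day, and the deviations of same-numbered libraries did not correlate. For the difference between the lines, DESeq2 called 9 genes, no filter 28, and leaving out 1 library 0 to 1. For cytoplasm minus nucleus, DESeq2 called 465, the replicate block 96, and leaving out 1 library 0 to 429. Of 134 named genes with a call, 71 kept it whichever library was left out. With all 18 cytoplasmic libraries 66 of them were no longer called, and without C166 normoxia replicate 1 30. The calls lost were 59 without normoxia replicate 1, 52 without normoxia replicate 2, 14 without normoxia replicate 3, and 52, 55 and 27 without replicates 1, 2 and 3 at 2h. Leaving out 1 library turned the sign of Yy1, which ranged over -0.14 to 0.01, without normoxia replicate 1 (0.01) and without replicate 2 at 2h (0.00), and that of the cytoplasm minus nucleus value of Acta2, which ranged over -0.12 to 0.02, without cytoplasmic normoxia replicate 2 (0.02) and without cytoplasmic 2h replicate 1 (0.01). None of these values was called. The causes were not tested. Depth limits the low genes: Slc16a3, Ankrd37 and mt-Atp8 were near or under 1 CPM in normoxia, and their folds rest on few counts.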
